A study of Mus musculus with 6 samples.

Results

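The genes of the methionine cycle and of transsulfuration were examined in WT MEFs after acute depletion of YME1L, a protease of the mitochondrial inner membrane. The 9 genes, *Mat2a*, *Mat2b*, *Ahcy*, *Mtr*, *Mtrr*, *Cbs*, *Cth*, *Mtap* and *Amd1*, were taken by name from the 51499 loci of the deposited count table, and each had its own row. They were chosen because *Mat2a* had been seen to fall in this comparison, so their differences between the groups are a description. Where 1 of them is said to be called, this gives its side of the threshold in the edgeR fit over all loci and is not evidence for a change, since the choice used the same comparison. All 9 passed the filter on low counts, which left 14499 loci to test, and all had at least 31 counts in every library.

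The cells were WT mouse embryonic fibroblasts (MEFs). They received either a control siRNA (Scr siRNA) or an siRNA against *Yme1l* (Yme1l siRNA) and were collected 72 h later, with 3 independent cultures per group. The methods describe immortalized WT MEFs that carry loxP sites in *Yme1l* that had not been recombined and that come from single clones. Whether the siRNA cultures were made from these cells is not stated there. The labels name 3T3 immortalization, whereas the methods name SV40 large T antigen. Poly(A)-selected RNA was sequenced, and the libraries held between 37260605 and 45205207 counts. *Yme1l1* was at 170.5, 171.3 and 170.6 CPM (counts scaled to the size of the library) in Scr siRNA libraries 1 to 3 and at 31.6, 23.4 and 45.0 CPM in Yme1l siRNA libraries 1 to 3, so the target was reduced in every treated library. Of the fibroblast markers, *Col1a1*, *Col1a2*, *Col3a1*, *Pdgfra* and *Pdgfrb* were abundant in all libraries and *Thy1* was nearly without counts. The summed level of the 8 fibroblast markers was 25200 to 32200 CPM in Scr siRNA and 14500 to 17500 CPM in Yme1l siRNA libraries, and its part in the differences described here was not tested. All 4 epithelial and all 4 hepatocyte markers stayed under 1 CPM in every library. The 4 endothelial markers summed to 3.79 to 4.08 CPM in Scr siRNA and 5.68 to 7.81 CPM in Yme1l siRNA, and the 4 leukocyte markers, nearly all from *Cd68*, to 44.6 to 53.9 and 26.3 to 59.8 CPM.

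Methionine is turned into S-adenosylmethionine (SAM), the methyl donor of most methylation reactions, by methionine adenosyltransferase. Methylation leaves S-adenosylhomocysteine (SAH), which is split into adenosine and homocysteine. Homocysteine is either methylated back to methionine or passed by transsulfuration to cysteine, a precursor of glutathione. A further branch decarboxylates SAM for polyamine synthesis, and its by-product is salvaged towards methionine.

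*Mat2a* encodes the catalytic subunit of the methionine adenosyltransferase found in most tissues (GRCm38, chr6:72432799-72439558, minus strand). Its transcript is a known target of the RNA methyltransferase METTL16, which binds 9-base elements in the 3′ UTR. A search of the sense strand of the longest protein-coding *Mat2a* transcript in GENCODE M21, 3387 bases long, for TACAGAGAA or TACAGAAAA found 6 matches, and all lay in the 2178 bases after the stop codon. Of 2479 genes whose longest protein-coding transcript is within 10% of this length, 9.12% hold at least 1 match and 1 gene, *Mat2a* itself, holds 6. The matches are shown with 8 bases on either side, 5′ to 3′ on the transcript strand of GRCm38, with the 9-base element in capitals, because no other transcript of like length holds as many. They describe the sequence and were not measured as sites in these cells.
Element at chr6:72434237-72434261: gcgtaggtTACAGAGAAgccttcaa
Element at chr6:72433453-72433477: ttgtgataTACAGAGAAgtcacagg
Element at chr6:72433274-72433298: ggtgtagcTACAGAGAAaccagctt
Element at chr6:72433159-72433183: ggcgtaagTACAGAGAAgccatcac
Element at chr6:72433048-72433072: aggtgtccTACAGAAAAaccttggg
Element at chr6:72432940-72432964: tggtgtggTACAGAGAAgccagctt

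*Mat2a* was at 0.785, 12.5 and 10.9 CPM in Scr siRNA libraries 1 to 3 and at 0.947, 1.01 and 0.831 CPM in Yme1l siRNA libraries 1 to 3. These levels rest on 34, 452 and 462 counts in the control libraries and on 42, 44 and 35 counts after knockdown. Scr siRNA library 1 lay below all 3 treated libraries, so the groups overlap and the higher control mean comes from libraries 2 and 3. The means were 8.09 ± 6.37 CPM in Scr siRNA and 0.930 ± 0.0920 CPM in Yme1l siRNA (SD, n = 3 each). The log2 fold change fitted by edgeR was -3.11 with a standard error of 0.81, and it was -3.66 without Scr siRNA replicate 1. *Mat2a* shares 95.2% identity over 1065 bases with the processed pseudogene *Gm9523*, which had 32 to 77 counts per library, and with these counts added the log2 fold change was -1.94. In such bulk samples, fewer cells with a transcript and less of it per cell cannot be told apart. With limma-voom it was -2.28. *Mat2a* was called lower by edgeR and not by limma-voom, and since it was itself the reason for the choice, neither call is read as a result. Among the 14499 loci tested, *Mat2a* was the 1 locus at which Scr siRNA libraries 2 and 3 were both over 3 times every other library, a pattern looked for after the values were seen. The reverse pattern, with both libraries over 3 times below every other library, was met by 11 loci, among them *Il18r1*, *Acod1* and *Atp8b4*.

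The rows next to *Mat2a* on chromosome 6 were examined for the same reason. Of 16 other protein-coding genes lying at least in part within 300 kb of *Mat2a* with a row in the table, 9 were under 1.5 CPM in every library, with at most 59 counts in any library. These 9 were *Sftpb*, *Usp39*, *0610030E20Rik*, *Tmem150a*, *Rnf181*, *Vamp5*, *Vamp8*, *Ggcx* and *Sh2d6*, and they lie in 1 run around *Mat2a*. *Usp39*, a splicing factor gene, had between 5 and 7 counts in every library. *Tmem150a* reached 44 counts in Yme1l siRNA library 3 and *Vamp5* reached 59 counts in Yme1l siRNA library 1, against at most 7 and 2 counts in their other libraries. The 7 genes on either side of this run, among them *St3gal5*, *Capg* and *Tgoln1*, ranged from 2.87 to 331 CPM. Whether the low counts around *Mat2a* follow the cells or the mapping and counting of reads was not tested, so the *Mat2a* values are counts as deposited and may not be its level in the cells.

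*Mat2b* encodes the regulatory subunit of the same enzyme (chr11:40679314-40695203, minus strand). It was at 82.3, 86.8 and 85.8 CPM in Scr siRNA and at 64.1, 60.1 and 61.2 CPM in Yme1l siRNA libraries 1 to 3. All treated libraries were below all control libraries, and the log2 fold change of -0.46 with a standard error of 0.063 was called lower. Set against *Mat2b* within each library, which needs no scaling, *Mat2a* had 0.954, 14.4 and 12.8 counts per 100 *Mat2b* counts in Scr siRNA libraries 1 to 3. The corresponding values in Yme1l siRNA libraries 1 to 3 were 1.48, 1.69 and 1.36. The ratio of Scr siRNA library 1 was thus below all 3 treated libraries, while libraries 2 and 3 were above them.

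**Figure D1:**
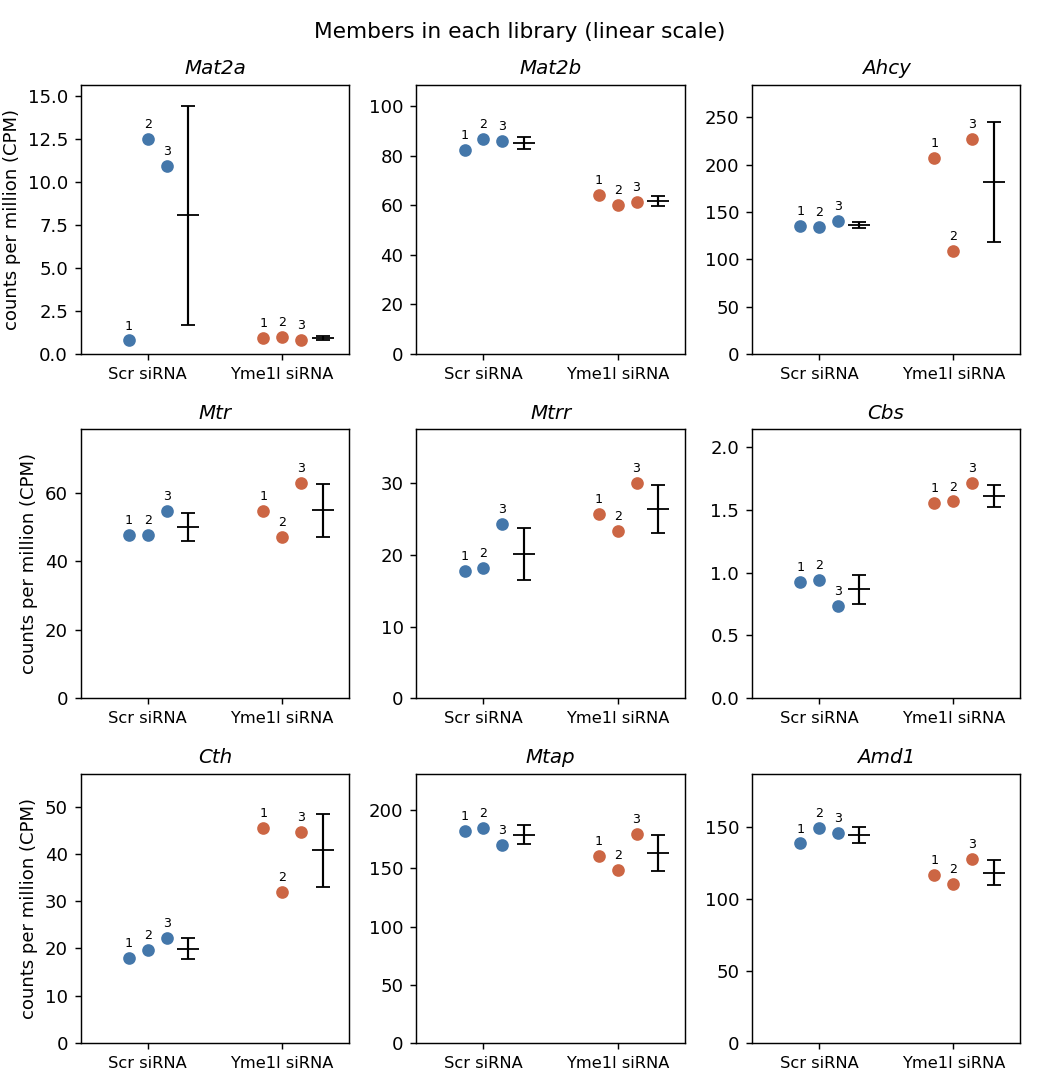
CPM of the 9 genes in each library on a linear scale from 0, with Scr siRNA libraries in blue and Yme1l siRNA libraries in orange, numbered by replicate. The horizontal marks and bars beside the points are means ± SD (n = 3). *Mat2b*, *Cbs*, *Cth* and *Amd1* show groups that do not overlap, and *Mat2a* in Scr siRNA library 1 lies with the treated libraries.

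*Ahcy* encodes adenosylhomocysteinase, which splits SAH (chr2:155059310-155074497, minus strand). It was at 135.5, 134.4 and 140.2 CPM in Scr siRNA libraries and at 207.4, 109.0 and 227.5 CPM in Yme1l siRNA libraries 1 to 3. Yme1l siRNA libraries 1 and 3 were above all controls and library 2 was below all of them. The log2 fold change of 0.41 with a standard error of 0.23 was not called, and without Yme1l siRNA replicate 2 it was 0.68 and was called higher. Without Yme1l siRNA replicate 3 it was 0.21 and was not called. *Ahcy* shares its sequence with *Gm4737*, at 99.7% identity over 2083 bases, and with the processed pseudogene *Gm9826*, at 99.2% over 1299 bases. *Gm4737* had between 429 and 912 counts and *Gm9826* between 182 and 699 counts per library, and how reads that fit several places were counted is not stated. With the counts of these copies added, the log2 fold change was 0.42 and the call did not change.

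*Mtr* encodes methionine synthase, the cobalamin-dependent enzyme that methylates homocysteine (chr13:12182712-12258113, minus strand). It was at 47.7, 47.7 and 54.8 CPM in Scr siRNA and at 54.8, 47.2 and 62.8 CPM in Yme1l siRNA libraries, so the groups overlapped. The log2 fold change was 0.13 with a standard error of 0.11, and *Mtr* was not called. *Mtrr* encodes the reductase that keeps methionine synthase active (chr13:68560780-68582149, minus strand). It was at 17.8, 18.1 and 24.2 CPM in Scr siRNA and at 25.7, 23.3 and 29.9 CPM in Yme1l siRNA libraries. Scr siRNA library 3 lay above Yme1l siRNA library 2, and the other control libraries lay below all treated ones. The log2 fold change of 0.39 with a standard error of 0.14 was called higher, but the call was lost without Scr siRNA replicate 1 (0.31) or 2 (0.32) and without Yme1l siRNA replicate 1 (0.41) or 3 (0.29).

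*Cth* encodes cystathionine gamma-lyase, which releases cysteine from cystathionine (chr3:157894248-157925077, minus strand). It was at 18.0, 19.7 and 22.3 CPM in Scr siRNA and at 45.5, 31.9 and 44.7 CPM in Yme1l siRNA libraries. Every treated library was above every control, and the mean rose to 40.7 ± 7.65 CPM (SD, n = 3) after knockdown, a log2 fold change of 1.03 with a standard error of 0.14. *Cbs* encodes cystathionine beta-synthase, which makes cystathionine from homocysteine and serine (chr17:31608894-31637238, minus strand). It was at 0.924, 0.942 and 0.735 CPM in Scr siRNA and at 1.56, 1.56 and 1.71 CPM in Yme1l siRNA libraries. The groups did not overlap, and the log2 fold change of 0.89 with a standard error of 0.21 was called higher, on only 31 to 72 counts per library. Both transsulfuration genes were thus higher in every treated library than in every control. The groups did not overlap for 65.4% of all loci tested, so nothing is read from this for the pathway.

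*Amd1* encodes adenosylmethionine decarboxylase, which diverts SAM to polyamines (chr10:40287458-40302186, minus strand). It was at 138.3, 149.2 and 145.5 CPM in Scr siRNA and at 116.4, 110.2 and 127.6 CPM in Yme1l siRNA libraries. The treated libraries were all below the controls, and the log2 fold change of -0.29 with a standard error of 0.077 was called lower. *Amd1* shares 99.6% identity over 3202 bases with *Amd2*, which had 115 to 191 counts per library, and 99.9% with the processed pseudogene *Amd-ps3*, which had 453 to 623. With these copies added the log2 fold change was -0.30. *Mtap* encodes methylthioadenosine phosphorylase, the first enzyme of methionine salvage (chr4:89137122-89181081, plus strand). It was at 182.0, 184.9 and 169.9 CPM in Scr siRNA and at 160.5, 148.9 and 179.3 CPM in Yme1l siRNA libraries, where library 3 lay within the range of the controls. Its log2 fold change of -0.14 with a standard error of 0.085 was not called.

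Of the 9 genes, 3 were called higher (*Mtrr*, *Cbs* and *Cth*), 3 lower (*Mat2a*, *Mat2b* and *Amd1*) and 3 were not called, at an adjusted p of 0.05 in edgeR. Of all 14499 loci tested, 28.4% were called higher and 29.6% lower. The groups did not overlap for 4 of the 9 genes, against 65.4% of all loci tested. The median log2 fold change of the 9 genes was 0.13 and that of all loci 0.009. Since the genes were chosen on this comparison, nothing is read from these counts.

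**Figure D2:**
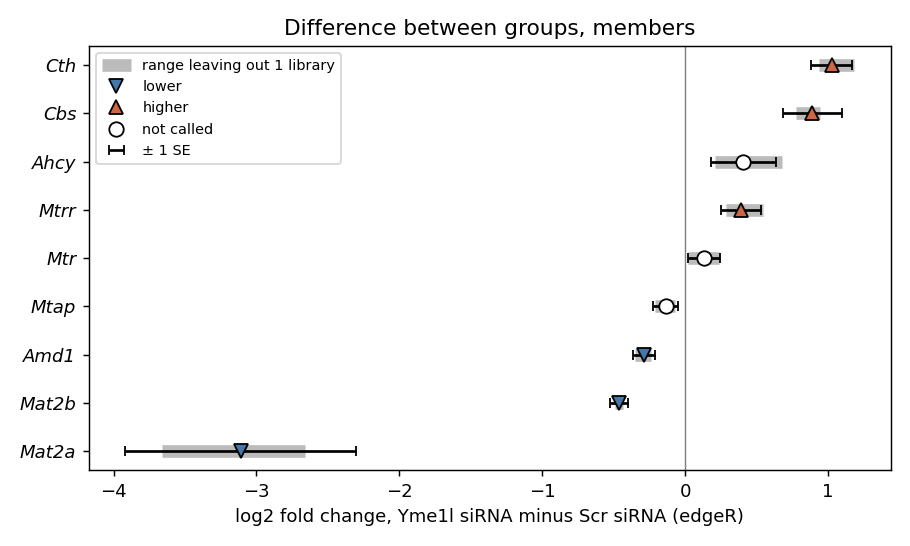
Log2 fold change of each of the 9 genes (Yme1l siRNA minus Scr siRNA, edgeR), with bars of ± 1 standard error and grey bars for the range when 1 library is left out. Triangles mark genes called higher or lower and open circles genes not called. *Mat2a*, at -3.11, has the widest range, from -3.66 to -2.66, and *Cth*, at 1.03, stays between 0.94 and 1.18.

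Levels of different genes were compared per kilobase of exon (RPKM computed from the counts and the union of exons). In Scr siRNA the order was *Mtap* (55.5 ± 2.47), *Ahcy* (48.7 ± 1.10), *Amd1* (40.7 ± 1.56), *Mat2b* (lowest 16.5, highest 17.4), *Cth* (7.16 ± 0.778), *Mtr* (5.87 ± 0.485), *Mtrr* (3.85 ± 0.698), *Mat2a* (1.80 ± 1.42) and *Cbs* (0.116 ± 0.0153 RPKM, SD, n = 3). The ranges of neighbours in this order did not overlap, although *Cth* and *Mtr* nearly met at 6.44 and 6.43 RPKM. After Yme1l siRNA *Ahcy* (64.6 RPKM) and *Mtap* (50.5 RPKM) overlapped, as did *Cth* (14.6) and *Mat2b* (12.4), *Mtr* (6.45) and *Mtrr* (5.06), and *Cbs* (0.215) and *Mat2a* (0.207). By these counts the catalytic subunit gene *Mat2a* stood below its regulatory partner *Mat2b* in every library, within the limit given above for the counts around *Mat2a*. The authors' group FPKM for *Mat2a* was 13.9 in Scr siRNA, against 1.80 RPKM from the counts, and 0.475 in Yme1l siRNA, against 0.207 RPKM. The authors' value in Scr siRNA gives it rank 5 of the 9 genes in Scr siRNA, in place of rank 8 by the counts.

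Among loci of 1 gene name whose mean log2 CPM reached 5, the library profiles closest to that of *Mat2a* were those of *Neat1*, *Ddit4*, *Fbxl20*, *Ei24* and *Trp53inp2*, at Euclidean distances of 2.98 to 3.12 on the log2 scale over 6 libraries. The limit on level left out loci with counts as low as those of *Mat2a*. Since the 5 were picked by their closeness to the *Mat2a* profile, lower values after knockdown follow largely from the choice. All 5 were lower in each Yme1l siRNA library than in each Scr siRNA library, with log2 fold changes of -2.39 to -1.93. None of them was low in Scr siRNA library 1: *Neat1*, a long noncoding RNA, was at 413, 448 and 627 CPM in the controls.

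Promoters of 8 of the 9 genes (RefSeq, GRCm38.p6, 250 bases before to 50 after the start, 2 for *Mtrr* and 1 for each other gene, without *Cth*) were searched on both strands for CACGTG, the E-box bound by MYC and related factors, for TGATGNAA, a composite site bound by ATF4, and for TGACNNNGC, the core of the antioxidant response element. Of 32851 promoters, 7.15% hold the first, 3.97% the second and 12.4% the third. Among the 8 genes searched only *Cbs* held a match, an E-box 229 bases before the start, shown here in capitals on the strand of the gene because *Cbs* is 1 of the 3 genes called higher.
*Cbs* promoter window at chr17:31637419-31637444: tcacgacaaaCACGTGttagacggca

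Genes around these 9 were taken from 6 further lists, which hold 76 genes, 68 of them tested. The lists were chosen with earlier results of these data known, and most genes named from them were picked by their adjusted p. The edgeR adjusted p-values given for them therefore describe this comparison and are not independent evidence of a change. Of the 68 genes tested, 23 were called higher and 20 lower in edgeR, with a median log2 fold change of -0.04. Shares over all 14499 loci tested were 28.4% higher and 29.6% lower, and nothing is read from the counts in these lists. In the list for SAM and SAH handling, which also holds relatives and regulators of the enzymes, 3 of 9 tested were higher and 3 lower. *Mettl16*, which encodes the RNA methyltransferase named above, rose from 47.1 ± 5.46 to 69.4 ± 4.18 CPM (SD, n = 3, log2 fold change 0.56, edgeR adjusted p = 0.00107). A link between *Mettl16* and the *Mat2a* counts was not tested. *Ahcyl1* and *Ahcyl2*, relatives of *Ahcy*, fell by 0.70 and 0.61 on the log2 scale (edgeR adjusted p = 0.000357 and 0.000878). *Mat1a*, the liver form of the SAM synthetase, had at most 2 counts in any library, and *Gnmt*, a glycine methyltransferase abundant in liver, at most 6.

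Of the genes for remethylation and cobalamin supply, 1 of 7 tested was higher and 4 lower. *Cd320*, the receptor for cobalamin bound to transcobalamin, rose by 0.52 on the log2 scale (edgeR adjusted p = 0.00162). *Lmbrd1* and *Mmadhc*, which serve cobalamin export from lysosomes and its later routing, fell by 0.32 and 0.20 (edgeR adjusted p = 0.00397 and 0.0268), and *Mmadhc* was no longer called without Scr siRNA replicate 1 (-0.21) or 2 (-0.17) or without Yme1l siRNA replicate 1 (-0.18) or 2 (-0.19). The number lower in this list was 1 without Scr siRNA replicate 1 or 2 or Yme1l siRNA replicate 1, and 2 without Yme1l siRNA replicate 2. *Bhmt*, which methylates homocysteine with betaine in liver, had 0 counts in all libraries.

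Of the genes for polyamines and methionine salvage, 4 of 14 were higher and 4 lower. The 4 lower include *Amd2*, the near-identical copy of *Amd1* described above, so it may not count as a separate gene. *Odc1*, ornithine decarboxylase, rose from 184.2 ± 8.20 to 341.6 ± 13.7 CPM (log2 fold change 0.89, edgeR adjusted p = 2.6e-05). *Srm*, spermidine synthase, which uses the product of AMD1, rose from 71.6 ± 9.31 to 157.2 ± 7.29 CPM (log2 fold change 1.14, edgeR adjusted p = 4.4e-05). *Sat1*, which acetylates spermidine and spermine for export or breakdown, fell from 154.5 ± 8.39 to 85.7 ± 6.52 CPM (edgeR adjusted p = 6e-05). Each of these groups has n = 3. The groups did not overlap for any of the 3 genes, which were named for their small adjusted p. The same held for 8 of the 14 genes in this list and for 65.4% of all loci tested.

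Of the genes for cysteine use and sulfide oxidation, 4 of 11 were higher and 5 lower. *Slc7a11*, the cystine importer, rose from 15.7 ± 1.61 to 53.4 ± 11.1 CPM (SD, n = 3; log2 fold change 1.77, edgeR adjusted p = 4.1e-05). *Gclm*, a subunit of the enzyme that starts glutathione synthesis, rose from 46.2 ± 5.98 to 112.8 ± 30.3 CPM (log2 fold change 1.29, edgeR adjusted p = 0.000536). *Gss*, glutathione synthetase, fell by 1.07 on the log2 scale (edgeR adjusted p = 4.8e-05). *Csad*, which leads cysteine towards taurine, fell by 1.15 (edgeR adjusted p = 1.4e-05). The products of *Gclm* and *Gss* act in consecutive steps of glutathione synthesis, and the transcripts moved in opposite directions.

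Of the amino acid carriers, 2 of 5 tested were higher in edgeR and the others were not called. *Slc3a2*, the heavy chain of several amino acid exchangers, rose by 0.53 and *Slc38a2*, a carrier of small neutral amino acids, by 0.27 on the log2 scale (edgeR adjusted p = 0.000491 and 0.00982). *Slc38a2* was no longer called without Scr siRNA replicate 2 (0.25) or Yme1l siRNA replicate 1 (0.24), which left 1 carrier higher. *Slc43a2*, which carries branched-chain amino acids and methionine, was at 12.7 ± 0.551 and 10.8 ± 1.69 CPM (SD, n = 3) and did not pass the test. *Slc7a5* was not analysed here. Of the SAM-dependent methyltransferases, 9 of 22 tested were higher and 4 lower. *Prmt5*, an arginine methyltransferase, rose by 0.59 (edgeR adjusted p = 0.000404) and *Pemt*, which methylates phosphatidylethanolamine, by 1.01 from a level of 2.68 CPM (edgeR adjusted p = 0.00153). *Gamt*, which makes creatine with SAM, fell by 1.00 (edgeR adjusted p = 0.00047).

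**Figure D3:**
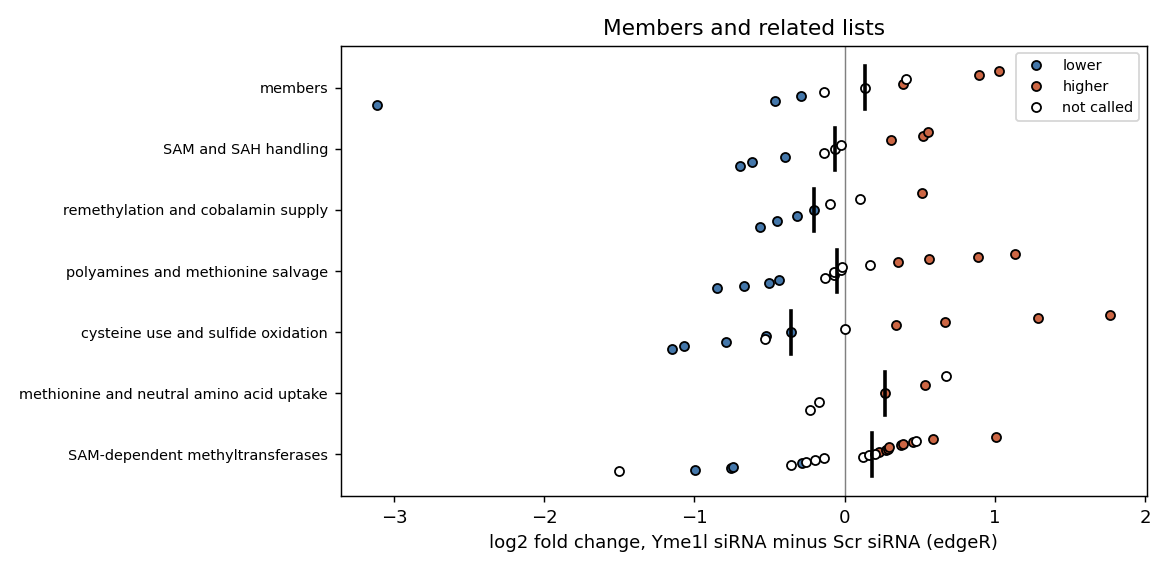
Log2 fold changes (Yme1l siRNA minus Scr siRNA, edgeR) of the tested genes in the 9-gene set and in 6 related lists, 1 point per gene, with the median of each list as a vertical line. Orange points were called higher, blue points lower and open points were not called. *Mat2a*, the gene for which the set was chosen, is at -3.11, and its groups overlap. The medians of the 6 related lists lie between -0.36 and 0.27.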

How the data were processed

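RNA-Seq libraries of 3 Scr siRNA and 3 Yme1l siRNA cultures were grouped by their labels, and 0 columns were left unmapped. The authors mapped reads to mm10 with HISAT2 2.0.4, assembled them with StringTie 1.3.3 and compared groups with Cuffdiff 2.2.1. The raw counts per locus were deposited without normalization. The counting program, its use of strand and its treatment of multi-mapping reads are not given in the sources used here. The deposited FPKM values are group levels made by the authors' comparison. Its fold changes, test statistics, p-values and q-values were not used.

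Groups were compared on the counts in R 4.3.3 with edgeR 4.0.16 (TMM factors, filterByExpr, quasi-likelihood test, Benjamini-Hochberg adjustment over 14499 loci, threshold 0.05). CPM are scaled by TMM. The edgeR step was tested on simulated data, in which DESeq2 exceeded the share of false calls allowed for edgeR. DESeq2 1.42.0, limma 3.58.1 (voom), other scale factors, filters and thresholds, a replicate block and leaving out each library were alternatives. Summing near-identical copies (BLAST 2.17.0, at least 90% identity over 1000 bases) was added after seeing the data. Gene positions and lengths came from GENCODE M21. Figures were drawn with matplotlib 3.10.9.

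The 9 genes and the lists were chosen with earlier results of these data known. The related genes named are the 3 with the smallest adjusted p per list, those called with at least a 2-fold change, and *Mat1a*, *Bhmt*, *Gnmt*, *Ahcyl1* and *Mettl16*. The genes most like *Mat2a* are the 5 closest profiles.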

Additional observations from a re-analysis of the deposited data

How the results depend on the processing

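Over 129 alternative fits of the 9 genes, 119 gave the same direction and call, 8 lost a call, 2 gained one and 0 turned the direction. At an adjusted p under 0.01, the number of the 9 genes called lower was 1 in place of 3, since *Mat2a* and *Amd1* lost their calls. The median log2 fold change of the 9 genes was 0.023 without Yme1l siRNA replicate 3 and 0.24 without Yme1l siRNA replicate 2, the ends of its range over the fits that left out 1 library. *Mtap* was called lower without Yme1l siRNA replicate 3, at -0.21. *Mat2a*, in counts with those of its pseudogene *Gm9523* added, had a log2 fold change of -1.94 and was still called. The difference in *Mat2a* counts per 100 *Mat2b* counts (Scr siRNA minus Yme1l siRNA means) was 7.87, and ranged from 5.37 to 12.1 when 1 library was left out. By the deposited group FPKM *Mat2a* ranked 5 among the 9 genes in Scr siRNA, in place of 8. The ranks of *Mat2b*, *Amd1*, *Cth* and *Mtr* in Scr siRNA also changed, and the cause was not tested.

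With the replicate number as a block, 3 of the 9 genes were higher and 3 lower, as without it, and of the related genes 24 were higher and 24 lower, in place of 23 and 20. Of these, the SAM-dependent methyltransferases had 7 lower in place of 4. Deviations of same-numbered libraries correlated at 0.041, 0.116 and 0.192, so the numbers were not taken as pairs. Depth limits *Cbs* and *Mat2a*, with under 100 counts in all or most libraries.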
